A study of Mus musculus with 12 samples.

Results

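Leukemic granulocyte-macrophage progenitors (L-GMP) were compared with whole, unfractionated leukemia cells in wild-type mouse acute myeloid leukemia (AML), on 6 of the 12 expression arrays of the series. The 3 arrays described as wild-type L-GMP were set against the 3 described as wild-type whole leukemia. The mice were of the C57BL/6J strain, and the wild-type genotype is given as AMPKfl/fl, so both groups carried floxed, undeleted AMPK alleles. Bone marrow progenitor and stem cells that expressed the fusion oncogene MLL-AF9 were injected, 50000 per recipient, into mice irradiated with 10 Gy, and leukemia cells were taken from the bone marrow of each recipient at the onset of AML. Whole leukemia cells were sorted as GFP-positive, and L-GMP as GFP-positive, without lineage antigens and with c-Kit, CD16/32 and CD34 on their surface, with 5000 cells per sample. The 6 other arrays repeat the design with AMPKΔ/Δ cells, in which AMPK was deleted. Their values are given side by side, and their spread enters the test, which pools it over all 12 arrays. The whole leukemia sort has no gate against L-GMP, so it holds them too, at a share that no source used here states. The age of the mice, the antibodies of the lineage gate and whether samples of a group came from separate animals are likewise not given, so every p-value rests on differences among samples that may partly be technical.

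Granulocyte-macrophage progenitors normally divide a limited number of times and give rise to neutrophils and monocytes. MLL-AF9 joins the DNA-binding part of MLL to AF9, recruits the transcription elongation machinery and keeps stem cell genes such as the HoxA cluster and Meis1 active in such progenitors. In mouse MLL-AF9 leukemia the L-GMP fraction is known to be rich in cells that start the disease again on transplantation, while the remaining leukemia cells carry more features of maturing myeloid cells. The comparison addresses how the messenger RNA of progenitor and whole leukemia cells differs.

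Values are log2 of the deposited intensity of 1 probe set per gene. A difference is the L-GMP mean minus the whole leukemia mean on that scale, with n = 3 arrays per group. Each difference is given ± its standard error (SE) from the test, which pools the spread over the arrays of both genotypes. AMPK-deficient arrays thus enter the SE, which can be wider or narrower than the wild-type arrays alone would give. Triplets of values are in the order of the replicate numbers 1, 2 and 3. Arrays of equal number were treated as pairs where differences within pairs are given. Pearson correlations between the 6 arrays over all genes lay between 0.955 and 0.985. The median SE of a difference was 0.15, with a 95% half-width of 0.34.

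No single gene passed the test. Of 17749 genes tested with limma over all 12 arrays, 0 (0%) reached a Benjamini-Hochberg adjusted p under 0.05, the threshold for a call, and the lowest adjusted p was 0.9999. At an unadjusted p under 0.05, where 887 genes would be expected by chance, there were 443 genes (2.5%). Of these, 164 measured higher in L-GMP (0.924% of all genes) and 279 lower (1.57%). With the pairs as a block over the 6 wild-type arrays these counts were 814 higher (4.59%) and 763 lower (4.3%), 8.89% together, and again 0 were called (lowest adjusted p by limma 0.238). The 2 populations did not overlap, every L-GMP array lying above or below every whole leukemia array, for 868 genes higher in L-GMP (4.89%) and 959 lower (5.4%). Together these were 1827 genes (10.3%). With exchangeable arrays, 3 against 3 separate fully with a probability of 0.1, so this count was near the chance share. L-GMP was higher in all 3 pairs for 2808 genes (15.8%) and lower in all 3 for 2717 (15.3%). With each array centred on its median the split without overlap turned to 1112 higher and 762 lower, and the split at the unadjusted threshold to 222 higher and 228 lower. An exact two-sided permutation test of 3 arrays against 3 cannot go below p = 0.1. All differences below are therefore measured values of genes that did not pass the test.

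Large differences lay almost all on the lower side. At least 1 log2 lower in L-GMP were 70 genes (0.394%), of which 63 were lower in all 3 pairs, against 7 genes at least 1 log2 higher (0.0394%). Over 2 pairs at a time, leaving out pair 1, 2 or 3, the lower counts were 54, 88 and 125, and the higher ones 3, 16 and 18. Of the 70 genes, 23 belonged to the lists of neutrophil, monocyte, pattern recognition or phagocyte oxidase genes. Of the 7 genes, 5 were predicted or unnamed transcripts, and the other two were Cd34, an antigen of the gate, and Zfp455, a zinc finger gene.

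The genes of the sorting gate came first as a check of the labels. Cd34, which encodes the sialomucin CD34 of progenitor cells (probe set 17221014), measured 8.48, 9.38 and 8.35 in whole leukemia and 9.67, 10.05 and 9.57 in L-GMP. Every L-GMP array lay above every whole leukemia array, and the difference of 1.03 ± 0.37 (95% interval 0.20 to 1.85) was a fold of 2.04, though its adjusted p was 1 by limma. The pairs differed by 1.19, 0.67 and 1.22, and with the pairs as a block the SE was 0.14 and the adjusted p by limma 0.281. Kit, which encodes the stem cell factor receptor c-Kit, measured 6.47, 7.02 and 7.50 in whole leukemia and 8.18, 7.36 and 7.14 in L-GMP. Its pairs differed by 1.71, 0.33 and -0.36, so the populations overlapped and pair 3 ran the other way. The Fcγ receptor genes behind the CD16/32 gate were not higher in the sorted cells. Fcgr3, which encodes CD16, measured 9.45, 9.16 and 9.20 in whole leukemia and 9.16, 8.64 and 9.05 in L-GMP, a difference of -0.32 ± 0.17 that was below 0 in all 3 pairs. Fcgr2b, which encodes CD32, differed by -0.05 ± 0.29.

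Among genes of common lineage antigens, Itgam, which encodes the CD11b chain of the myeloid integrin Mac-1, measured 9.78, 8.47 and 9.75 in whole leukemia and 8.94, 7.32 and 8.61 in L-GMP. It was lower in L-GMP in each pair, with a difference of -1.05 ± 0.65 on the means, but the arrays overlapped because both arrays of pair 2 were low. Ptprc, which encodes the pan-leukocyte phosphatase CD45, lay lower in every L-GMP array, with a difference of -0.24 ± 0.20. Ly6g, which encodes a neutrophil antigen bound by the Gr-1 antibody, reached 5.71 in whole leukemia array 3 and lay between 4.37 and 4.91 on the other 5 arrays, close to the 4.72 below which genes were left out as dim. The T cell antigen genes Cd3e, Cd4, Cd8a, Cd5 and Cd2 stayed between 4.68 and 5.57 on all 6 arrays. Of the 10 antigens listed, 8 were tested. In all pairs 3 of these were lower (37.5% against 15.3% of all genes) and 1 higher (12.5% against 15.8%).

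**Figure D1:**
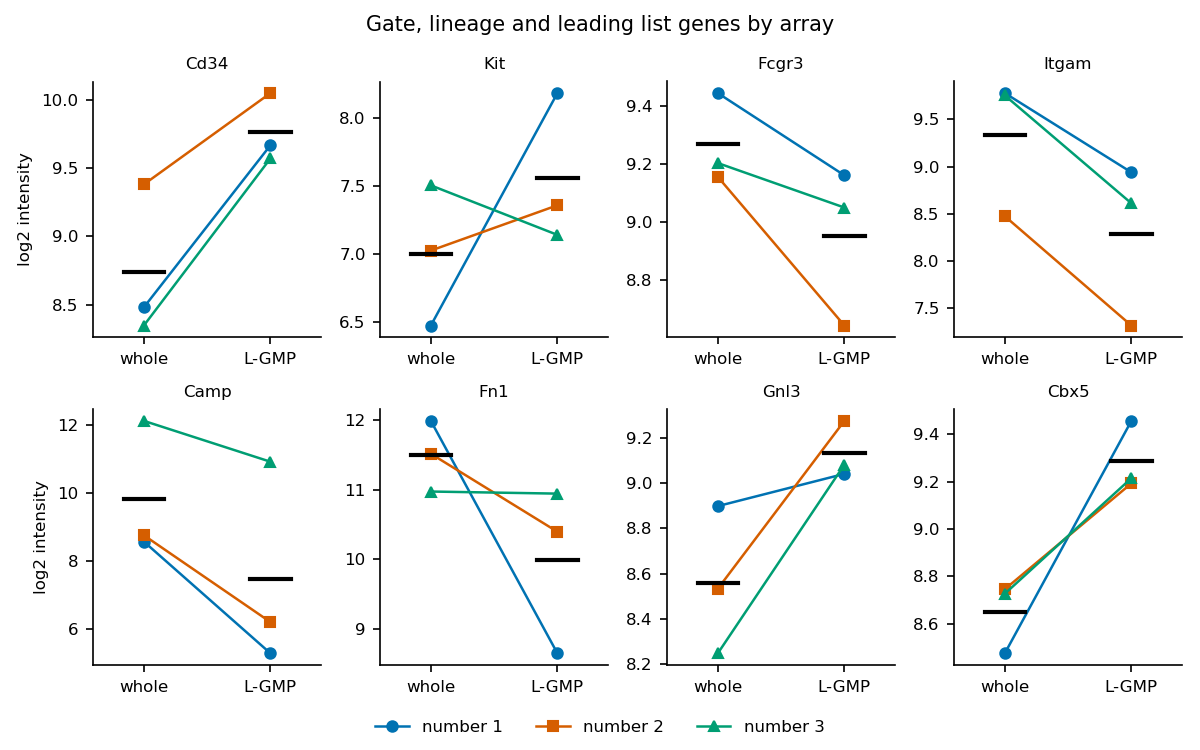
Log2 intensity of 8 genes on the 6 wild-type arrays, with lines joining arrays of the same number (colour and marker) and black bars for the mean of 3 arrays; each panel has its own scale. Cd34, Gnl3 and Cbx5 lie higher in every L-GMP array than in any whole leukemia array, Fn1 lies lower in every L-GMP array, and Kit runs the other way in pair 3.

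The widest differences were those of neutrophil maturation genes, which encode the proteins of secondary and tertiary granules, calprotectin, stefins and the receptors of maturing neutrophils. All 31 tested members had a lower mean in L-GMP, against 51.2% of all genes, and 23 were lower in all 3 pairs (74.2% against 15.3%). Their median difference was -0.97, against 0.00 over all genes, and members ranged from -2.93 to -0.14. In 4 of the 31 the arrays did not overlap (5.4% of all genes), and 0 had an unadjusted p under 0.05 (19 with the pairs as a block), and the arrays of a group differed widely. The mean of the 31 genes was 7.94, 7.70 and 9.78 in whole leukemia and 7.01, 6.76 and 8.31 in L-GMP. Array 3 of each population was thus the highest of its group, and L-GMP array 3 lay above whole leukemia arrays 1 and 2. Without whole leukemia array 3 the median difference of the list was -0.29, and without any other single wild-type array it lay between -1.40 and -0.67. The median pair difference was -0.33, -0.58 and -1.22, the last of these the widest. Without pair 1, 2 or 3 in turn, 31, 23 and 23 of the 31 genes were lower in both remaining pairs, against 26%, 25.6% and 27.9% of all genes. In sorted or whole populations fewer cells of a type and less RNA per cell cannot be told apart.

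Camp, which encodes the antimicrobial cathelicidin of secondary granules, measured 8.58, 8.76 and 12.13 in whole leukemia and 5.28, 6.21 and 10.93 in L-GMP, a difference of -2.35 ± 1.39. The 2 arrays of number 3 were both high, and within each number the L-GMP array was lower, with differences of -3.29, -2.56 and -1.20. Ngp, the neutrophilic granule protein, measured 8.06, 9.11 and 11.27 in whole leukemia and 5.25, 7.36 and 10.24 in L-GMP, with the same order of arrays and a difference of -1.86 ± 1.17. Ltf, which encodes the iron-binding lactoferrin, was low on arrays 1 and 2 of both populations and measured 5.80, 5.40 and 9.96 in whole leukemia and 5.50, 5.31 and 6.80 in L-GMP. Its difference of -1.18 ± 1.27 rested on pair 3, which gave -3.16. Mmp8, the neutrophil collagenase, measured 10.59, 7.43 and 9.52 in whole leukemia and 6.57, 5.29 and 8.91 in L-GMP. It was lower in each L-GMP array than in the whole leukemia array of its number, with differences of -4.01, -2.14 and -0.62.

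S100a8 and S100a9 encode the 2 chains of calprotectin, a calcium-binding protein abundant in neutrophils and monocytes. S100a9 measured 10.58, 10.02 and 12.02 in whole leukemia and 8.54, 7.50 and 11.37 in L-GMP, a difference of -1.74 ± 0.84. S100a8 followed it at -1.44 ± 0.78, and both were lower in all 3 pairs. Il1r2, the decoy receptor of interleukin 1, measured 8.32, 9.23 and 8.11 in whole leukemia and 7.33, 7.56 and 6.65 in L-GMP, and its arrays did not overlap, with a difference of -1.37 ± 0.68. The other members without overlap were Orm1, an acute phase glycoprotein (-1.43), Cd177, a neutrophil surface glycoprotein (-0.88), and Slfn4, a Schlafen family gene (-0.71).

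Other members of the list had smaller differences. Chil3, which encodes the chitinase-like protein Ym1, was bright on all 6 arrays, at 11.93, 11.93 and 11.99 in whole leukemia and at 11.69 and 11.73 in L-GMP arrays 2 and 3, with L-GMP array 1 the highest of the 6, a difference of -0.14 ± 0.77. Cebpe, the transcription factor of secondary granule genes, differed by -0.20 ± 0.52, and Csf3r, the receptor of granulocyte colony-stimulating factor, by -0.28 ± 0.39, each with pairs of both signs. Retnlg and Cxcr2, genes of late neutrophils, were low in arrays 1 and 2 of both populations. Retnlg measured 4.48, 4.52 and 8.53 in whole leukemia and 4.55, 4.36 and 5.61 in L-GMP, highest in whole leukemia array 3. Without that array the differences of Cebpe, Csf3r, Cxcr2, Ltf and Retnlg turned to 0.47, 0.03, 0.17, 0.27 and 0.35. The stefin genes had the widest mean differences of all named genes, -2.93 for Stfa2l1 and -2.72 for Stfa3. Stefins are close paralogs whose probes may cross-hybridise, so the values of Stfa1, Stfa2, Stfa2l1, Stfa3, Csta3 (-2.30) and Cstdc4 (-1.96) are not independent of each other.

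Promoters of these genes are shown because transcription factors of granulocytes are known to bind there. The windows are the 150 bases upstream of the annotated start, from RefSeq (build GRCm38.p6), with matches to a C/EBP motif (TTGCNNAA, either strand) in capitals for Ngp (chr9:110419658-110419807, plus strand), Ltf (chr9:111019142-111019291, plus strand) and Mmp8 (chr9:7558279-7558428, plus strand), and with matches to a PU.1 motif (GAGGAAG, either strand) for Itgb2l (chr16:96443615-96443764, minus strand) and Lcn2 (chr2:32387740-32387889, minus strand).
Ngp: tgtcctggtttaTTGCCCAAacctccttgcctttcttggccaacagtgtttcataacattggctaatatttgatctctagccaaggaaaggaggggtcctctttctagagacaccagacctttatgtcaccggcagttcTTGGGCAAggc
Ltf: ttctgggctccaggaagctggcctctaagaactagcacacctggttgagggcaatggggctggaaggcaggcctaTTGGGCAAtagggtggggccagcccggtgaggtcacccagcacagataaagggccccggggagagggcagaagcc
Mmp8: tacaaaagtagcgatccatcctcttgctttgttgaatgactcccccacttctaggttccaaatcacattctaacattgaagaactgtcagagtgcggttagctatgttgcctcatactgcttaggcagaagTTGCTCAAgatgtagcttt
Itgb2l: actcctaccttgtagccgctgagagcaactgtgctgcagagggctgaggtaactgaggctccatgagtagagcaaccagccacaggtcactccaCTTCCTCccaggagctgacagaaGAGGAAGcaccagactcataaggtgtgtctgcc
Lcn2: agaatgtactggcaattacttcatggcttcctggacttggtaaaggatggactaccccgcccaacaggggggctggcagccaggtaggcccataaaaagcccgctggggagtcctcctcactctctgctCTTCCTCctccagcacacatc
Ngp carries 2 matches, 138 and 11 bases upstream of the start, and Itgb2l carries 2, on opposite strands. Itgb2l, an integrin beta chain of neutrophils, differed by -0.97 ± 0.76, and Lcn2, the siderophore-binding lipocalin 2, by -0.75 ± 0.59, each lower in all 3 pairs. Over the whole 300-base windows, 250 bases before to 50 after the start, the C/EBP motif was present in 9 of the 27 neutrophil genes with a window (33.3%), in 10.7% of the 13755 tested genes with one and in 10.8% of all 32851 windows. The PU.1 motif was present in 11 of the 27 (40.7%), against 15.7% of tested genes and 13.6% of all windows. In the monocyte and macrophage list the PU.1 motif was present in 9 of 25 genes with a window (36%). Of the 3 neutrophil genes with a window and without overlap, 0 carried either motif. The neutrophil and monocyte lists were chosen by cell type. The C/EBP and PU.1 shares may follow from that choice and do not rest on the arrays. The windows shown are of genes with a match. A match is a description of the letters and shows no binding.

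Monocyte and macrophage genes also measured lower in L-GMP, in a different pattern over the pairs. Of 31 tested, 27 had a lower mean, 15 were lower in all 3 pairs (48.4% against 15.3% of all genes), 0 were higher in all 3, and in 10 the arrays did not overlap (5.4% of all genes). Their median difference was -0.51, with pair medians of -0.69, -0.49 and -0.02, so that of pair 3 was close to 0. Leaving out an array or a pair in turn, the median ran from -0.56 to -0.23, and it was closer to 0 without whole leukemia array 1 (-0.34), L-GMP array 1 (-0.26) or pair 1 (-0.23). Their mean was 7.41, 7.33 and 7.03 in whole leukemia and 6.51, 6.80 and 7.01 in L-GMP. L-GMP array 1 was the lowest and the 2 arrays of number 3 lay close together. Without pair 3, 27 of the 31 were lower in both remaining pairs. Among whole leukemia arrays, number 3 was thus the lowest for monocyte genes, while it was the highest for neutrophil genes. Of the 31 monocyte and macrophage genes, 8 were lower at an unadjusted p under 0.05 by limma (1.57% of all genes). With the pairs as a block 15 were (4.3% of all genes).

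Vcan, which encodes the matrix proteoglycan versican made by classical monocytes, measured 7.11, 6.61 and 5.84 in whole leukemia and 5.04, 5.03 and 5.47 in L-GMP, a difference of -1.34 ± 0.32 without overlap. L-GMP arrays 1 and 2 were near background. Fn1, which encodes fibronectin, measured 11.98, 11.51 and 10.97 in whole leukemia and 8.65, 10.39 and 10.94 in L-GMP, so that pair 1 differed by -3.34 and pair 3 by -0.03. Ccr2, the chemokine receptor by which monocytes leave the marrow, measured 8.19, 8.11 and 7.69 in whole leukemia and 7.53, 6.88 and 7.63 in L-GMP, and Cx3cr1, the fractalkine receptor, differed by -0.63 ± 0.22, both without overlap. Mertk, a receptor kinase for the uptake of dying cells, measured 7.17, 7.53 and 5.75 in whole leukemia and 5.33, 5.92 and 5.63 in L-GMP. It was high in whole leukemia arrays 1 and 2 and low on the other 4. Csf1r, the receptor of macrophage colony-stimulating factor, measured 8.75, 8.06 and 7.60 in whole leukemia and 7.11, 7.27 and 7.93 in L-GMP. Its pairs differed by -1.64, -0.79 and 0.33, and only pair 3 was above 0. Ms4a7, a membrane gene of macrophages, differed by -0.28 ± 0.09 close to background.

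Sensors of microbes showed the next lowest median. Of 28 pattern recognition and innate sensing genes, 26 had a lower mean in L-GMP and 18 were lower in all 3 pairs (64.3% against 15.3% of all genes). Of these, 8 did not overlap (28.6% of the list against 5.4% of all genes), and the median difference of the 28 genes was -0.49. Their mean was 7.16, 6.999 and 7.13 in whole leukemia and 6.29, 6.44 and 6.75 in L-GMP, every L-GMP array below every whole leukemia array. Of the 28, 7 were lower at an unadjusted p under 0.05 by limma (1.57% of all genes). With the pairs as a block 15 were (4.3% of all genes). Tlr7 encodes an endosomal receptor of single-stranded RNA and Tlr8 its close relative. Tlr7 measured 7.62, 7.47 and 7.08 in whole leukemia and 6.24, 6.26 and 6.54 in L-GMP, a difference of -1.04 ± 0.36, and Tlr8 differed by -0.90 ± 0.32, both without overlap. Clec4n, which encodes the fungal receptor dectin-2, differed by -0.43 ± 0.14, and Nod1, a cytosolic sensor of bacterial peptidoglycan, by -0.39 ± 0.17, again without overlap. Fpr2, a formyl peptide receptor of phagocytes, measured 7.28, 8.09 and 9.08 in whole leukemia and 4.92, 6.53 and 7.59 in L-GMP, a difference of -1.80 ± 0.81 that was lower in each pair. Lilrb4a, an inhibitory receptor of myeloid cells, measured 9.85, 9.16 and 9.55 in whole leukemia and 6.51, 7.80 and 9.32 in L-GMP, with the low value of L-GMP array 1 setting most of its difference of -1.64 ± 0.73.

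The killing machinery of phagocytes lay in the same direction. Of 18 phagocyte oxidase and bactericidal genes 16 had a lower mean. Lower in all 3 pairs were 9 (50% against 15.3% of all genes), and 0 were higher. The pair medians were -0.35, -0.42 and -0.44 around a median of -0.39. Cybb, which encodes the catalytic subunit of the NADPH oxidase, measured 9.45, 10.21 and 10.37 in whole leukemia and 6.94, 8.64 and 9.77 in L-GMP, a difference of -1.56 ± 0.68. L-GMP array 1 was the lowest by far and array 3 was close to its whole leukemia partner. Ncf1 and Ncf4, cytosolic subunits of the same oxidase, differed by -0.54 ± 0.42 and -0.56 ± 0.41, lower in each pair. Itgb2, the beta chain that pairs with CD11b, differed by -0.78 ± 0.51 without overlap. Lyz2, which encodes lysozyme and is shared with the primary granule list, measured 11.68, 11.43 and 11.84 in whole leukemia and 10.06, 10.72 and 11.48 in L-GMP.

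Genes that mark granulocyte-macrophage progenitors and their primary (azurophil) granules had medians just above 0 over the group means. Of 19 progenitor genes 14 had a higher mean in L-GMP, 7 were higher in all 3 pairs (36.8% against 15.8%) and 1 lower, with a median of 0.15 and pair medians of 0.41, 0.13 and 0.12. Prtn3 and Ctsg encode serine proteases packed into primary granules. Prtn3 measured 10.60, 10.48 and 10.56 in whole leukemia and 11.09, 10.64 and 10.78 in L-GMP and Ctsg 11.54, 11.56 and 11.19 in whole leukemia and 11.96, 11.76 and 11.57 in L-GMP, each higher in every L-GMP array, by 0.29 ± 0.30 and 0.33 ± 0.45. Cst7, which encodes the protease inhibitor cystatin F, differed by 0.63 ± 0.49 and was higher in each pair. Mpo, the myeloperoxidase of the same granules, measured 10.49, 10.10 and 10.61 in whole leukemia and 11.31, 9.82 and 11.20 in L-GMP, lower in pair 2 only. Elane, neutrophil elastase, differed by 0.16 ± 0.42, less than its SE. Transcription factor genes of this stage had pairs of both signs. Irf8, which directs monocytic development, measured 9.68, 9.75 and 9.46 in whole leukemia and 7.10, 9.43 and 10.63 in L-GMP, with L-GMP array 1 low and L-GMP array 3 the highest of the 6, and Cebpa, needed to form such progenitors, differed by 0.22 ± 0.33. The lowest differences of the list were those of Fcnb, a lectin of the complement system, at -0.79 ± 0.99, of Irf8 at -0.58 ± 0.74 and of Nkg7, a granule membrane gene, at -0.56 ± 0.86. The 13 primary granule genes, 6 of them in the progenitor list too, had a median of 0.07. Of the 13 genes, 3 were higher in all pairs (23.1% against 15.8% of all genes) and 2 lower (15.4% against 15.3%). The pair medians of this list were 0.45, -0.05 and -0.15, so the median was below 0 in pairs 2 and 3. Its mean difference was -0.13. That mean includes Cstdc4, a stefin gene placed in this list, which was its lowest member at -1.96. Cstdc4 and Lyz2 were the 2 genes lower in all pairs. Leaving out an array or a pair in turn, the median ran from -0.19 to 0.27 for primary granule genes and from 0.05 to 0.24 for progenitor genes.

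Stem cell genes and targets of the fusion oncogene had medians near 0. Over 23 stem and progenitor genes the median was 0.02. In all pairs 3 were higher (13% against 15.8% of all genes), Cd34 among them, and 2 lower (8.7% against 15.3%). Over 22 MLL-AF9 target genes the median was 0.05, with 6 higher (27.3%) and 3 lower (13.6%) in all pairs. Hoxa9, which encodes a homeobox factor that sustains MLL leukemia, measured 7.91, 8.19 and 7.88 in whole leukemia and 8.16, 8.30 and 7.58 in L-GMP, a difference of 0.02 ± 0.51 (95% interval -1.11 to 1.15). Its cofactor gene Meis1 measured 8.14, 8.62 and 8.78 in whole leukemia and 9.11, 8.70 and 8.69 in L-GMP, with the lowest value in whole leukemia array 1. Myc, which encodes the transcription factor of growth, was higher in each pair, at 8.63, 8.50 and 8.90 in whole leukemia and 9.25, 8.88 and 9.24 in L-GMP, a difference of 0.45 ± 0.49. Bcl2, an inhibitor of apoptosis, was higher in each pair, by 0.15, 0.77 and 0.81. Id2, which encodes an inhibitor of basic helix-loop-helix factors, lay the other way without overlap, at 8.78, 8.16 and 8.54 in whole leukemia and 6.28, 7.55 and 7.72 in L-GMP. Intervals of this width do not show that the populations are alike.

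Genes that mouse and cell line studies tie to the upkeep of MLL leukemia stem cells leaned higher in L-GMP. Of 21 tested, 16 had a higher mean and 11 were higher in all 3 pairs (52.4% against 15.8%). Of these, 4 did not overlap (19% of the list against 4.89% of all genes). The median of the list was 0.16 with pair medians of 0.21, 0.13 and 0.03. Cbx5, which encodes the heterochromatin protein HP1 alpha, measured 8.47, 8.75 and 8.73 in whole leukemia and 9.46, 9.19 and 9.21 in L-GMP, a difference of 0.64 ± 0.28 without overlap. Prmt1, an arginine methyltransferase, measured 8.20, 8.27 and 7.77 in whole leukemia and 8.46, 8.92 and 8.31 in L-GMP, and Hmgb1, a DNA-bending protein, differed by 0.29 ± 0.15, both without overlap. The genes of Polycomb repressive complex 2 were each higher in all 3 pairs, Ezh2, its methyltransferase, by 0.36 ± 0.35, Suz12 by 0.27 ± 0.20 and Eed by 0.16 ± 0.12. Men1, which encodes menin, the partner of MLL on chromatin, differed by -0.16 ± 0.15 with L-GMP array 1 the lowest.

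Ribosome biogenesis gave the highest median of the 43 lists. All 33 tested MYC target and ribosome biogenesis genes had a higher mean in L-GMP, against 48.8% of all genes, 22 were higher in all 3 pairs (66.7% against 15.8%), and in 13 the arrays did not overlap (4.89% of all genes). The median difference was 0.32, with pair medians of 0.19, 0.32 and 0.43, and members ranged from 0.03 to 0.78. The mean of the 33 genes was 8.11, 8.11 and 7.89 in whole leukemia and 8.33, 8.46 and 8.30 in L-GMP, with every L-GMP array above every whole leukemia array. Without pair 1, 2 or 3 in turn, 30, 23 and 24 of the 33 were higher in both remaining pairs, against 31%, 25.5% and 26.3% of all genes. At an unadjusted p under 0.05 there were 0 of the 33, and 20 with the pairs as a block.

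Npm1, which encodes the abundant nucleolar chaperone nucleophosmin, measured 11.27, 11.37 and 11.13 in whole leukemia and 11.47, 11.66 and 11.52 in L-GMP, a small difference of 0.30 ± 0.18 without overlap. Dkc1 and Gar1 encode subunits of the particles that place pseudouridine in ribosomal RNA. Dkc1 measured 7.25, 7.48 and 7.42 in whole leukemia and 8.12, 7.77 and 8.04 in L-GMP and Gar1 6.36, 6.65 and 6.64 in whole leukemia and 6.86, 7.20 and 6.89 in L-GMP, both without overlap. Polr1b, a subunit of RNA polymerase I, which transcribes ribosomal RNA, differed by 0.45 ± 0.28, and Gnl3, which encodes nucleostemin of the nucleolus, by 0.57 ± 0.41, without overlap in either. Nop58, Nolc1 and Utp20, genes of small nucleolar particles and of the small subunit processome, differed by 0.46, 0.36 and 0.39. Ppan, which encodes a factor of large subunit assembly, had the widest mean difference of the list, 0.78 ± 0.41, but its pairs gave 1.58, 0.90 and -0.13 and its arrays overlapped.

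MYC binds the E-box CACGTG, and the 150 bases upstream of 2 genes of this list are shown with it in capitals, for Hspd1 (chr1:55088244-55088393, minus strand) and Nme1 (chr11:93968273-93968422, minus strand).
Hspd1: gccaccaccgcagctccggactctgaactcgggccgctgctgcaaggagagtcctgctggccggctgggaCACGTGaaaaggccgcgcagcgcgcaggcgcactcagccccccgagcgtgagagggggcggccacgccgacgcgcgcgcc
Nme1: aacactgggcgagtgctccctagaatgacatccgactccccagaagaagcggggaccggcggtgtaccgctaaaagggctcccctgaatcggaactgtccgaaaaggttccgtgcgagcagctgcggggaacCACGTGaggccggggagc
Hspd1, which encodes the mitochondrial chaperonin, measured 9.67, 9.83 and 9.30 in whole leukemia and 9.86, 10.08 and 9.88 in L-GMP and had no overlap, while Nme1, a nucleoside diphosphate kinase, differed by 0.27 ± 0.28 and was higher in all 3 pairs. In the 300-base windows the E-box was present in 9 of the 27 genes of the list with a window (33.3%), against 10.3% of tested genes and 7.15% of all windows. The list names MYC targets, so this share may follow from how the list was chosen and does not rest on the arrays. Of its 12 genes with a window and without overlap, 2 carried the E-box, and the windows shown are of genes with a match. The E-box reads the same on both strands.

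Genes of DNA replication leaned the same way. All 28 tested G1/S and DNA replication genes had a higher mean in L-GMP, 16 were higher in all 3 pairs (57.1% against 15.8% of all genes), and in 4 the arrays did not overlap (4.89% of all genes), with a median of 0.21 and pair medians of 0.08, 0.28 and 0.29. Pola1, which encodes the catalytic subunit of DNA polymerase alpha, measured 7.05, 6.97 and 6.89 in whole leukemia and 7.86, 7.35 and 7.43 in L-GMP, without overlap. Mcm6, of the replicative helicase, differed by 0.26 ± 0.27 without overlap, and Mcm5, of the same helicase, by 0.34 ± 0.23. Chaf1a, which loads histones behind the fork, and E2f1, which drives entry into S phase, were higher in each pair, at 0.48 ± 0.27 and 0.27 ± 0.15. An E2F motif (TTCCCGCC, either strand) was present in 6 of the 24 genes of this list with a window (25%), against 3.88% of tested genes and 2.19% of all windows. The list was chosen by role in replication, so this share too may follow from that choice. Of 29 G2/M and mitosis genes 26 had a higher mean and 12 were higher in all pairs (41.4%), but pair 1 gave a median of -0.01 against 0.27 and 0.26 in the others. Bub1, a kinase of the spindle checkpoint, measured 6.75, 7.03 and 6.93 in whole leukemia and 6.85, 7.86 and 7.43 in L-GMP. Wee1, which restrains entry into mitosis, was among the largest higher values outside the lists, at 0.71 ± 0.40 without overlap.

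Inhibitors of the cell cycle leaned lower. Of 22 tested, 18 had a lower mean in L-GMP, 9 were lower in all 3 pairs (40.9% against 15.3%) and 0 higher, with a median of -0.19. Cdkn1c, which encodes the cyclin-dependent kinase inhibitor p57, measured 6.24, 5.76 and 6.18 in whole leukemia and 5.35, 5.43 and 5.51 in L-GMP, a difference of -0.63 ± 0.27 without overlap. Txnip, which restrains glucose uptake and thioredoxin, measured 9.63, 9.86 and 9.75 in whole leukemia and 9.31, 9.37 and 9.33 in L-GMP, again without overlap. Cdkn2d, another inhibitor of the G1 kinases, differed by -0.38 ± 0.41 without overlap. Btg2, an antiproliferative gene, was lower in each pair, with differences of -0.40, -1.20 and -0.67, while Cdkn1a, which encodes p21, had pairs of both signs.

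**Figure D2:**
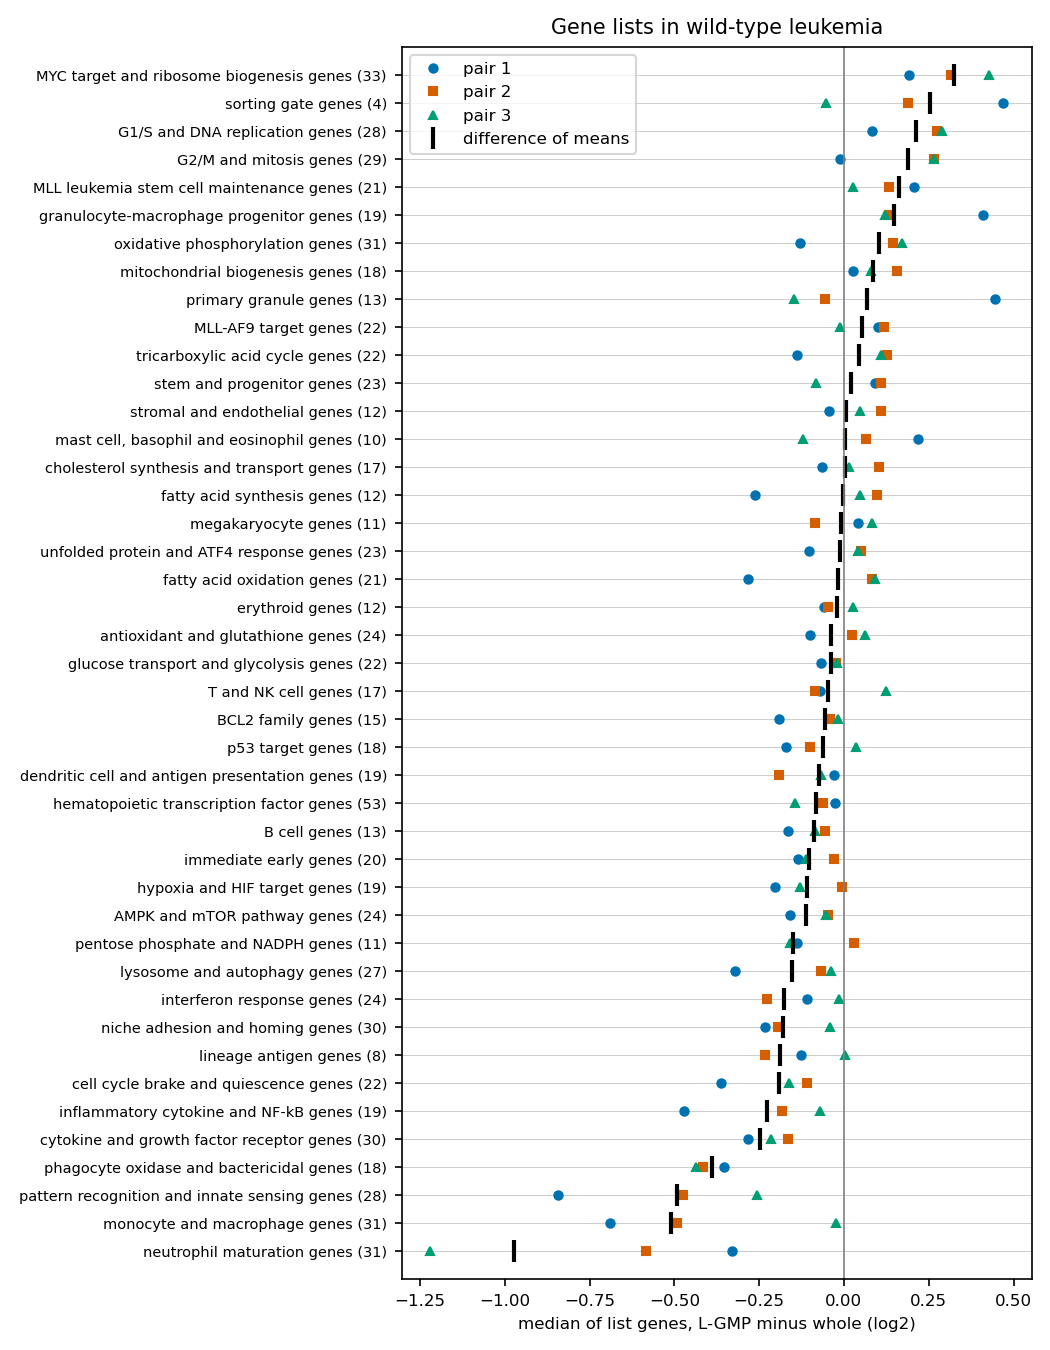
Median log2 difference, L-GMP minus whole leukemia, over the tested genes of each of 43 lists (number of genes in brackets), per pair of arrays (colour and marker) and for the difference of group means (black bar). The neutrophil list lies lowest at -0.97 and the MYC target and ribosome biogenesis list highest at 0.32, and the monocyte list lies near 0 in pair 3.

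Of 30 cytokine and growth factor receptor genes tested, 24 had a lower mean in L-GMP and 6 a higher one, and 11 were lower in all 3 pairs (36.7% against 15.3% of all genes), 0 higher, with a median of -0.25. Tnfrsf1b, which encodes a receptor of tumour necrosis factor, measured 8.07, 8.54 and 7.99 in whole leukemia and 6.54, 7.56 and 7.70 in L-GMP, without overlap. Csf2rb, the shared beta chain of the receptors of interleukin 3, interleukin 5 and GM-CSF, differed by -0.37 ± 0.19 and Il13ra1, a receptor of interleukin 13, by -0.93 ± 0.53, both without overlap. Kit was the highest member of that list. Among 30 niche adhesion and homing genes 10 were lower in all pairs (33.3% against 15.3% of all genes) and 1 higher. Lower without overlap were 5 (16.7% against 5.4% of all genes). Itgal, which encodes the leukocyte integrin LFA-1 alpha chain, stood at -0.52 ± 0.19 and Sirpa, the receptor of the CD47 signal, at -0.50 ± 0.30, neither overlapping.

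Inflammatory and lysosomal genes had smaller medians. Of 19 inflammatory cytokine and NF-κB genes 15 had a lower mean, with a median of -0.23, and Ccl6, a myeloid chemokine, measured 6.38, 6.68 and 6.78 in whole leukemia and 5.08, 5.64 and 6.28 in L-GMP, without overlap. The 27 lysosome and autophagy genes had a median of -0.15, with 9 lower (33.3% against 15.3% of all genes) and 1 higher in all pairs. Ctsh, a lysosomal cathepsin, measured 7.53, 7.84 and 8.01 in whole leukemia and 5.30, 6.96 and 7.87 in L-GMP, so most of its difference of -1.08 ± 0.54 came from L-GMP array 1. Hmox1, which encodes the haem-degrading enzyme heme oxygenase 1, measured 9.18, 8.36 and 7.77 in whole leukemia and 6.11, 7.51 and 7.69 in L-GMP, without overlap but with pair differences of -3.07, -0.86 and -0.07. Of 53 transcription factor genes of blood cells 13 were lower in all pairs (24.5% against 15.3% of all genes). Higher in all pairs were 5 (9.43% against 15.8%), and the median was -0.08. Klf6, a zinc finger factor of myeloid activation, differed by -0.71 ± 0.35 and Nr4a1, a nuclear receptor of nonclassical monocytes, by -0.59 ± 0.26, the latter without overlap.

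Interferon response genes differed more between the pairs than between the populations. The mean of 24 genes was 5.83, 8.01 and 5.93 in whole leukemia and 5.65, 7.76 and 5.81 in L-GMP, so both arrays of number 2 lay far above the other 4. Within pairs the medians were -0.11, -0.23 and -0.02, and with single arrays or a pair left out the median ran from -0.78 to 0.59. Ifitm3, an antiviral membrane protein, measured 9.41, 10.97 and 9.34 in whole leukemia and 6.51, 10.47 and 8.24 in L-GMP, and its difference of -1.50 ± 1.01 came mainly from pair 1, at -2.90. The part of pair 2 in other results was not tested beyond leaving it out.

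**Figure D3:**
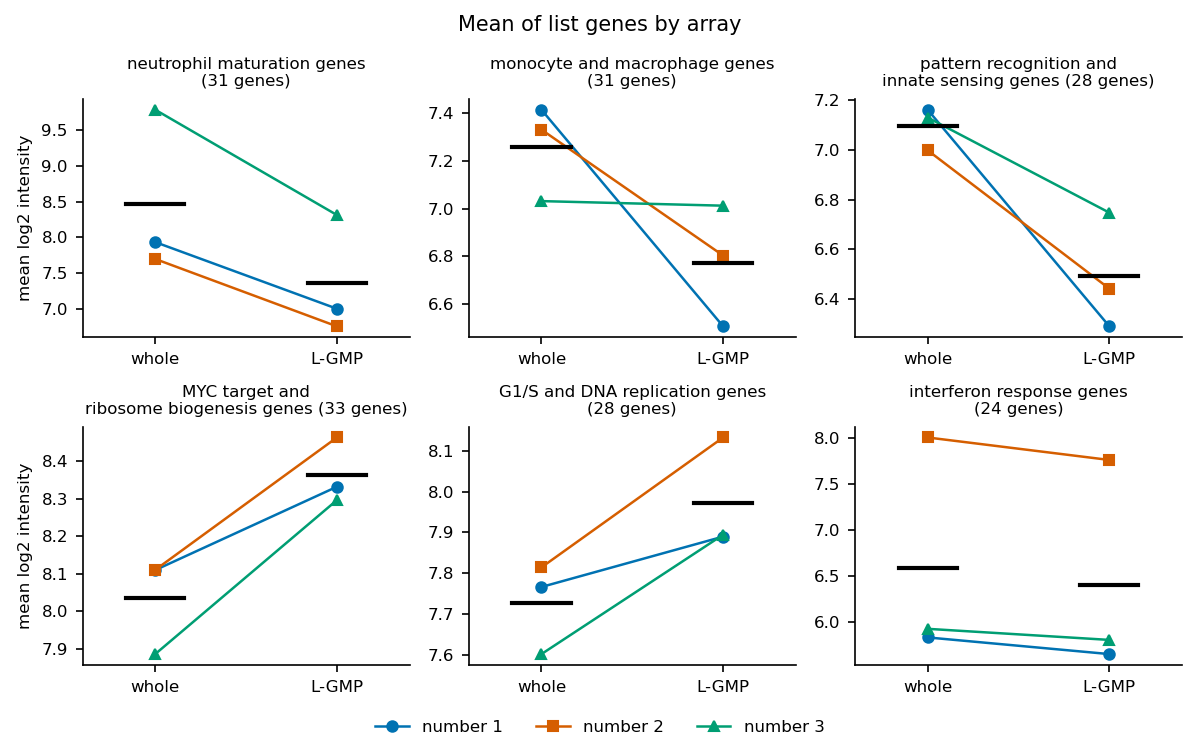
Mean log2 intensity over the genes of 6 lists on each wild-type array, with lines joining arrays of the same number (colour and marker) and black bars for the mean of 3 arrays; each panel has its own scale. Neutrophil genes are highest in the 2 arrays of number 3 and interferon genes in the 2 arrays of number 2. The means of the other lists shown separate the populations on every array, that of monocyte genes narrowly (7.03 in whole leukemia array 3, 7.01 in L-GMP array 3).

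Of 31 oxidative phosphorylation genes 26 had a higher mean in L-GMP (83.9% against 48.8% of all genes), 12 were higher in all 3 pairs (38.7% against 15.8%) and 0 lower. Their median was 0.10, with pair 1 at -0.13 and the other two at 0.14 and 0.17. Leaving out an array or a pair in turn, the median ran from 0.02 to 0.21. Ndufb10, a subunit of respiratory complex I, measured 8.81, 9.09 and 8.97 in whole leukemia and 9.04, 9.27 and 9.15 in L-GMP. The medians were 0.04 for 22 tricarboxylic acid cycle genes, -0.04 for 22 glucose transport and glycolysis genes and -0.02 for 21 fatty acid oxidation genes. Slc16a3, which exports lactate, differed by -0.37 ± 0.19 without overlap, and Slc2a1, the main glucose transporter, by -0.39 ± 0.30, lower in each pair. Idh1, the cytosolic isocitrate dehydrogenase that makes NADPH, measured 8.93, 8.66 and 8.88 in whole leukemia and 8.01, 8.16 and 8.77 in L-GMP. The AMPK catalytic subunit genes, which are intact in these cells, differed by -0.10 ± 0.24 for Prkaa1 and 0.12 ± 0.09 for Prkaa2, with Prkaa2 near background on all arrays. Over 24 genes of the AMPK and mTOR pathway the median was -0.11. Lower in all pairs were 7 (29.2% against 15.3% of all genes) and higher 0. In 1 the L-GMP arrays lay lower without overlap (4.17% against 5.4% of all genes). Tsc2, which encodes an inhibitor of mTOR complex 1, measured 7.58, 7.41 and 7.61 in whole leukemia and 7.04, 7.38 and 7.19 in L-GMP, without overlap.

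Survival, sterol and stress genes had medians close to 0. Of 15 BCL2 family genes 10 had a lower mean in L-GMP, with a median of -0.06. Lower in all pairs were 3 (20% against 15.3% of all genes) and higher 1. Mcl1, an inhibitor of apoptosis needed by myeloid cells, measured 9.46, 9.56 and 9.57 in whole leukemia and 9.12, 9.10 and 9.37 in L-GMP, and Bmf, a promoter of apoptosis, differed by -0.35 ± 0.14, both lower in every L-GMP array. The 18 p53 target genes had a median of -0.06, and 1 of them lay lower without overlap (5.56% against 5.4% of all genes). Trp53inp1, a stress-induced regulator of p53, measured 6.85, 8.17 and 8.21 in whole leukemia and 5.96, 6.66 and 6.91 in L-GMP, a difference of -1.23 ± 0.61 that was lower in each pair, and Fas, the death receptor, differed by -0.44 ± 0.32 without overlap. The 17 cholesterol synthesis and transport genes had a median of 0.00, and Cyp51 and Sc5d, enzymes late in sterol synthesis, were higher in every L-GMP array, by 0.34 ± 0.16 and 0.33 ± 0.19. The 12 fatty acid synthesis genes had 0 members higher or lower in all pairs. Of 18 mitochondrial biogenesis genes 7 were higher in all pairs (38.9% against 15.8% of all genes) and 1 lower, with a median of 0.09. Pprc1, a coactivator of mitochondrial genes, differed by 0.33 ± 0.22 without overlap. The medians were -0.04 for 24 antioxidant and glutathione genes, -0.15 for 11 pentose phosphate and NADPH genes and -0.01 for 23 unfolded protein and ATF4 response genes. Of 20 immediate early genes 15 had a lower mean and of 19 hypoxia and HIF target genes 14, with medians of -0.10 and -0.11. Hif1a, which encodes the oxygen-regulated subunit of HIF-1, measured 7.88, 7.43 and 7.42 in whole leukemia and 7.03, 7.42 and 7.30 in L-GMP, lower in every L-GMP array, with pair differences of -0.85, 0.00 and -0.13.

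Genes of 5 other cell types that bone marrow could contribute had low means in both populations. The mean over 12 erythroid genes lay between 5.09 and 5.20 on the 6 wild-type arrays, over 17 T and NK cell genes between 5.13 and 5.30, over 13 B cell genes between 5.27 and 5.57, over 11 megakaryocyte genes between 5.12 and 5.31 and over 12 stromal and endothelial genes between 5.36 and 5.48. Of the 22 erythroid entries listed, 10 were not matched. Of the 13 B cell genes, 11 had a lower mean in L-GMP, with a median of -0.09. Among these B cell genes 7 were lower in all 3 pairs (53.8% against 15.3% of all genes) and 1 higher. For 3 of them L-GMP lay lower without overlap (23.1% against 5.4% of all genes). Dendritic cell and antigen presentation genes lay higher, with a mean over 19 genes of 5.998, 6.33 and 5.98 in whole leukemia and 5.85, 6.09 and 5.91 in L-GMP and a median difference of -0.07. For 10 genes of basophils, mast cells and eosinophils the mean was 5.44, 5.51 and 5.59 in whole leukemia and 5.62, 5.61 and 5.50 in L-GMP, with a median difference of 0.00. One of them, Mcpt8, a basophil protease, measured 8.14, 8.31 and 7.94 in whole leukemia and 8.66, 8.88 and 8.49 in L-GMP. It was well above background on all 6 arrays and higher in every L-GMP array, and the part of such cells in other results was not tested.

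The genes of lowest p among those that did not pass were mostly not members of these lists. Lower in L-GMP were Ms4a8a, a membrane gene of the MS4A family, at 7.64, 6.63 and 6.93 in whole leukemia and 5.08, 5.58 and 6.03 in L-GMP, and Klra2, which encodes a Ly49 receptor, at 6.81, 7.76 and 7.35 in whole leukemia and 4.97, 5.64 and 6.66 in L-GMP. Ids, the lysosomal iduronate sulfatase, differed by -0.55 ± 0.12, Stim1, the calcium sensor of the endoplasmic reticulum, by -0.51 ± 0.13, Naaa, a lysosomal amidase, by -0.73 ± 0.19, Abcc3, an export pump, by -0.39 ± 0.10 and Epb41l1, a membrane skeleton gene, by -0.30 ± 0.08, none with overlap. Higher were Plekhn1 at 5.79, 5.60 and 5.81 in whole leukemia and 6.23, 6.32 and 6.09 in L-GMP and Zfp455 at 4.62, 5.27 and 4.80 in whole leukemia and 6.67, 5.72 and 5.52 in L-GMP. Ccdc77, N4bp2l2, Timm29, Mettl24, Prss3 and Ctrl were each 0.36 to 0.48 higher, without overlap, and the last pair of these encode digestive proteases and lay close to background. Chosen after their values were seen for their size, Ifitm6, an interferon-induced transmembrane gene, differed by -2.13 ± 0.94, Clec4a1, a C-type lectin of myeloid cells, by -1.68 ± 0.47, Tgfbi, a matrix protein of monocytes, by -1.65 ± 0.57, St3gal5, a sialyltransferase of gangliosides, by -1.45 ± 0.78 and Tespa1, known from T cell receptor signalling, by 0.83 ± 0.30.

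The same comparison in AMPK-deficient leukemia shares no array with it, and its values stand beside the wild-type ones. There 0 of 17749 genes (0%) were called by limma and 7.39% had an unadjusted p under 0.05. Of the 70 genes at least 1 log2 lower in wild-type L-GMP, 68 were lower in AMPK-deficient L-GMP too, 42 of them in all 3 pairs, against 47.6% and 12.6% of all genes. Of the 7 at least 1 log2 higher, 6 were higher there. The median of the neutrophil list was -1.69 with pairs of -0.27, -3.29 and -1.88, and that of the MYC target and ribosome biogenesis list 0.55 with pairs of -0.05, 1.44 and 0.29. The monocyte list, at -0.05, and the G2/M list, at -0.15, had medians nearer to or below 0. AMPK-deficient whole leukemia array 2 measured high for erythroid genes, with a mean of 9.02 over 12 genes against 5.15 and 5.81 in arrays 1 and 3, and the part of these cells in the values of that pair was not tested. Over pairs 1 and 3 of that genotype, 68 of the 70 genes were lower in L-GMP, against 47.1% of all genes.

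The difference between the genotypes in the step from whole leukemia to L-GMP was tested as an interaction, and 0 genes were called (limma, 365 or 2.06% at an unadjusted p under 0.05), with a lowest adjusted p of 1, so nothing is shown to be particular to the wild type. Cd34 differed by 1.03 ± 0.37 in the wild type and by 3.26 ± 0.37 in the AMPK-deficient leukemia, an interaction of -2.23 ± 0.53. The genes of lowest p in that test were Acads, the short-chain acyl-CoA dehydrogenase, with 0.04 in the wild type against 0.75, Pcp4l1 with -0.27 against 1.16, Snapc2, of small nuclear RNA transcription, with -0.43 against 0.38, Rad9a, of the DNA damage clamp, with -0.07 against 0.43, and Nlgn2, a neuroligin, with -0.15 against 0.65.

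**Figure D4:**
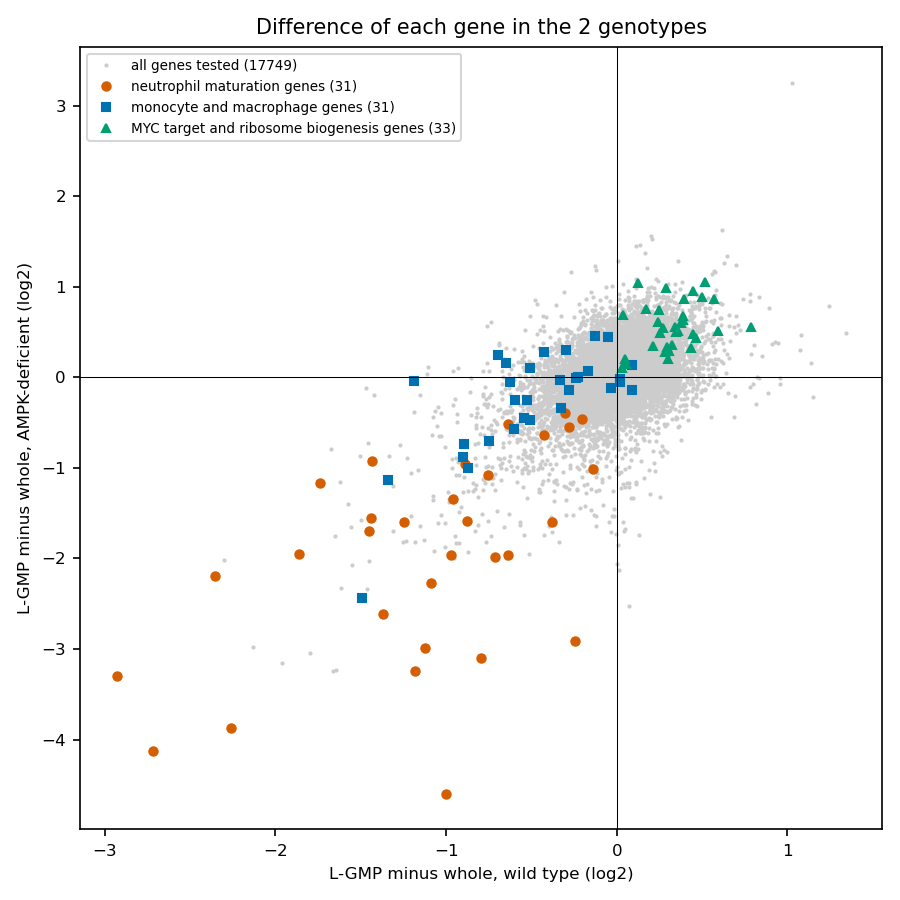
Log2 difference, L-GMP minus whole leukemia, of each of 17749 genes in wild-type (x axis) and AMPK-deficient leukemia (y axis), with members of 3 lists coloured. Neutrophil genes lie lower in L-GMP on both axes, ribosome biogenesis genes higher on both, and monocyte genes spread from the lower left to the upper left.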

How the data were processed

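The values analysed are the intensities that the authors deposited for 33794 probe sets on 12 one-colour arrays, 3 per group, on a linear scale between 18.0 and 9108.2 with array medians of 36.9 to 39.3. No source used here states the scanner software, background correction or normalization behind these intensities, and the number of arrays limits the precision. Intensities were converted to log2 with no further scaling. Platform annotation gave 1 gene symbol for 23521 probe sets, several for 1814 and none for 8459, and 99.2% of gene identifiers were found in the RefSeq table (GRCm38.p6), with 0 symbols changed. The probe set of highest mean represented each of 22180 genes, and 4431 genes in the lowest 25% by mean (under 4.72 log2) were left out.

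The 17749 remaining genes were tested with limma 3.58.1 in R 4.3.3 (lmFit, eBayes) on all 12 arrays in 4 groups, with Benjamini-Hochberg adjustment over all of them. Deviations from the group means correlated between wild-type arrays of equal number at 0.36, 0.62 and 0.30, each above those with other numbers, so the replicate numbers of the labels were taken as pairs and the replicate block was run as an alternative. The fit was tested on simulated data. Alternatives comprised the block, the wild-type groups alone, scaling, the dim filter, a pseudocount of 16, all probe sets of a gene, variance and array weights, and leaving out each array or pair. Counts per list without each pair, large differences without each pair and the AMPK-deficient comparison without its pair 2 were added after seeing the data.

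Lists held 839 genes on the arrays, of which 805 were tested and 34 were dim, and 75 further entries were not matched. Members and lists were chosen with earlier results of these data known. Named genes were those of lowest p in each direction, in each list and in the interaction, those of the sorting gate and the AMPK subunits. A further 63 genes were chosen after their values were seen, for size, known role or lack of overlap.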

Additional observations from a re-analysis of the deposited data

Results flagged for a closer look

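The 43 lists and the 149 genes of the text were screened by the rule below. The share of all genes that meet it was not counted, so whether the number found exceeds chance was not tested. A median or gene is given where all 3 wild-type pairs lay on one side of 0 and all 3 AMPK-deficient pairs on the other. Hypoxia and HIF target genes did so as a list: the pair medians were -0.20, -0.00 and -0.13 in the wild type and 0.06, 0.11 and 0.13 in the AMPK-deficient leukemia, and the median over genes of the wild-type minus the AMPK-deficient difference was -0.27. This difference was not tested for the list. Among genes, Snapc2 had been named for its low p in the interaction, so it was chosen on the same contrast. Snapc2, of small nuclear RNA transcription, differed between the genotypes by -0.81 ± 0.17, Tsc2, the mTOR complex 1 inhibitor, by -0.54 ± 0.23, N4bp2l2 by 0.53 ± 0.13 and the T cell gene Cd5, close to background, by 0.28 ± 0.15. Each of these 4 had an interaction adjusted p of 1 by limma over 17749 genes.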

How the results depend on the processing

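Of 17749 genes, 0 were called under every alternative other than leaving out pair 1 from the replicate block over the 6 wild-type arrays. With all samples kept, the lowest adjusted p by limma over these alternatives was 0.238, with the replicate block over 6 arrays, and the block itself changed no call. Over all settings that left out an array or a pair, the count of called genes was 0 to 3, and the 3 were Stfa3 (-2.04), Ifitm6 (-1.95) and Pla2g10os (-1.90), the last chosen after its values were seen, at an adjusted p by limma of 0.0487. With the replicate block, which uses the pairing, the genes at an unadjusted p under 0.05 numbered 339 higher and 416 lower over 12 arrays, and 814 and 763 over 6. They numbered 448 and 458 for the wild-type groups alone, 465 and 521 with array weights and 87 and 175 with the lowest 50% left out. Leaving out pair 1, 2 or 3 from the block over 6 arrays gave 1181, 322 and 605 higher and 792, 556 and 782 lower. Leaving out a single array gave 103 to 257 higher and 188 to 374 lower, and 868 to 2286 higher and 959 to 1974 lower without overlap, where fewer arrays separate more often by construction.

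Among named genes, 5 values turned sign outside these: Cd8a with quantile normalization (0.0066), centred arrays (0.013) and array weights (0.022), and Hoxa9 (-0.18) and Irf8 (0.26) with array weights. The cause was not tested. Leaving out a single array turned the sign of 14 genes in at least 1 setting, with ranges over all 12 such settings of Cd3e -0.15 to 0.011, Cd8a -0.089 to 0.10, Cebpe -0.58 to 0.47, Csf3r -0.45 to 0.032, Cxcr2 -1.30 to 0.17, Fcgr2b -0.20 to 0.19, Fcnb -1.76 to 0.25, Hoxa9 -0.12 to 0.24, Irf8 -1.37 to 0.40, Ltf -2.01 to 0.27, Ly6g -0.53 to 0.14, Men1 -0.26 to 0.024, Prkaa1 -0.36 to 0.13 and Retnlg -1.68 to 0.35. Within the replicate block over 6 arrays, leaving out pair 1 turned Cd8a (0.031), Elane (-0.036), Fcgr2b (0.046), Hoxa9 (-0.098), Irf8 (0.42), Kit (-0.016), Meis1 (-0.0050), Men1 (0.033), Pcp4l1 (0.0076) and Prkaa1 (0.036), leaving out pair 2 turned Cd3e (0.054), Cd8a (0.077), Hoxa9 (-0.025) and Rad9a (0.012) and leaving out pair 3 turned Acads (-0.020), Cebpe (0.37), Ly6g (0.14) and Prkaa2 (-0.016). The neutrophil median lay between -0.97 and -0.70 under the other alternatives and that of MYC target and ribosome biogenesis genes between 0.30 and 0.34. Lists whose median moved by more than the spread were phagocyte oxidase genes (-0.34 with 16 added, -0.29 with array weights) and, with array weights, pentose phosphate (-0.03), interferon (-0.39) and immediate early genes (-0.04). The limit that depth sets on arrays is signal over background, and genes close to the dim threshold were measured with little signal.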
